A study of Mus musculus with 4 samples.

Results

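Hox genes encode homeodomain transcription factors that record where along the body a cell lies, and the mouse carries them in 4 clusters, HoxA on chromosome 6, HoxB on chromosome 11, HoxC on chromosome 15 and HoxD on chromosome 2. The members described here were all probe sets whose platform annotation gave 1 gene symbol made of Hox, a cluster letter and a paralogue number. These were 48 probe sets for 33 genes, of 39 Hox genes in the reference gene table and of 18193 genes on the arrays with a probe set of their own. Where a gene had several, the one used was chosen by its mean signal over the 4 arrays, the brightest standing for the gene, so levels are given as a description with no test. Of the 33 genes, 18 (54.5%) had a mean log2(signal + 16) at or above the median of all probe sets, 5.37 or a signal of 25.3, and entered the test, as did 64.2% of all genes. The other Hox genes of the reference table were not analysed here.

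The samples were 2 arrays labelled VEGFD and 2 labelled Apex, each a biological replicate by its title. In both groups 293EBNA cells, a line derived from human embryonic kidney, grew as flank tumours in mice to 2000 mm3, and collecting lymphatic vessels stained by a blue dye given into the tumour were dissected for the sorting of endothelial cells with magnetic beads. In the VEGFD group the tumour cells carried an expression vector with VEGFD, the gene of a growth factor for lymphatic vessels, and in the Apex group the same vector without an insert. Strain, age and sex of the mice, the surface marker of the sort and whether a replicate was 1 mouse or a pool are not stated in the labels, and the extraction note speaks of lymph node endothelium. The comparison asked how cells of the draining vessels differ when the tumour makes VEGF-D.

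Within a cluster, Hox genes lie in the order of their paralogue numbers. Low numbers act toward the head end and are switched on early, high numbers act toward the tail end and the outer limb, and genes with 1 number in different clusters descend from 1 ancestral gene. Adult fibroblasts, smooth muscle cells and endothelial cells keep a Hox pattern that reflects the part of the body they came from. Pbx, Meis and Pknox proteins bind DNA together with Hox proteins, and Polycomb and Trithorax proteins keep the clusters silent or active.

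Endothelial markers were uneven across the arrays. The 10 endothelial markers, of which 5 were tested, summed to signals of 287 and 164 in VEGFD replicates 1 and 2, against 278 and 3565 in Apex replicates 1 and 2. Emcn, at 2670, made up most of the sum of Apex replicate 2. Tek and Cldn5 did not stand out on that array. Tek had 86.1 and 20.3 in VEGFD arrays, against 101 and 43.9 in Apex arrays, and Cldn5 had 30.3 and 32.6 in Apex arrays. Pecam1, the gene of the endothelial surface protein CD31, was at 3.25 and 2.22 in VEGFD arrays, against 2.92 and 141 in Apex arrays, and Tie1 at 0.755 and 1.81 in VEGFD arrays, against 0.626 and 33.4 in Apex arrays. Prox1, the transcription factor gene of lymphatic identity, had 3.19 and 5.94 in VEGFD arrays, against 11.2 and 11.6 in Apex arrays. The other lymphatic markers were mixed. Pdpn had 1237 and 1715 in VEGFD arrays, against 963 and 1622 in Apex arrays. Flt4, the receptor gene for VEGF-C and VEGF-D, had 161 and 145 in VEGFD arrays, against 42.6 and 247 in Apex arrays. Nrp2 was at least 2-fold lower without overlap, with 34.2 and 122 in VEGFD arrays, against 148 and 246 in Apex arrays. Lyve1 had 22.0 and 14.5 in VEGFD arrays, against 16.5 and 151 in Apex arrays. Mmrn1 and Reln lay below the filter, Reln with more signal in both VEGFD arrays. The 7 lymphatic markers found summed to 1501 and 2060 in VEGFD arrays, against 1204 and 2336 in Apex arrays. Pdpn made up most of that sum on every array, and neither Pdpn nor Flt4 is made by lymphatic endothelium alone. The 10 fibroblast markers summed to 17484 and 18494 in VEGFD arrays, against 19939 and 18325 in Apex arrays, of which Col1a2 and Col3a1 made up most. Within that list Dpt, the gene of the matrix protein dermatopontin, had 204 and 168 in VEGFD arrays, against 2725 and 2407 in Apex arrays, a log2 change of -3.68 ± 0.23 (limma adjusted p = 0.115, the smallest of all tested genes), and Twist2 had -1.03 ± 0.46. Apex replicate 2 stood apart by its endothelial sum, and the arrays are named by their labels throughout. In RNA from many cells, fewer cells of a type and less RNA per cell cannot be told apart.

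Hox genes with low and central paralogue numbers in the HoxB and HoxC clusters had more signal in VEGFD arrays, and those with high numbers in HoxA, HoxC and HoxD had less. Over all 33 members, without any filter, 15 of the 19 genes numbered 1 to 8 had a higher mean in VEGFD arrays, or 78.9% against 43.5% of all 18193 genes. Of the 14 members numbered 9 to 13, 12 had a lower mean in VEGFD arrays, or 85.7% against 56.5% of all genes. The VEGFD arrays lay above both Apex arrays in 11 of those 19 genes (57.9%, against 14.4% of all genes). They lay below both in 10 of those 14 (71.4%, against 22.6%). At least 2-fold apart without overlap were 7 of the 33 with more signal in VEGFD arrays (21.2%, against 0.808% of all genes) and 5 with less (15.2%, against 2.25%). Hoxd10, among the 5, was high on Apex replicate 2 alone. These counts include dim members. Among the 12, Hoxa13 (log2 change -0.050), Hoxb13 (-0.045) and Hoxd12 (-0.0075) hardly changed. Hoxb13 and Hoxd11, among the 10 below both, had signals of 6.78 or less. Hoxa2, Hoxb5 and Hoxb7, among the 11 above both, had 21.4 or less. The boundary between 8 and 9 was set after the values were seen, and the Hox genes were proposed with earlier results of these data known, so the counts describe these arrays and carry no test.

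No Hox gene passed the test over all genes. In limma, 0 of the 18 tested Hox genes and 0% of all 11677 tested genes had an adjusted p under 0.05, and the smallest adjusted p of a Hox gene was 0.434, for Hoxc8. At an unadjusted p under 0.05, limma gave 8 Hox genes with more signal in VEGFD arrays (44.4%, against 1.95% of all tested genes) and 1 with less (5.56%, against 3.75%). At least 2-fold apart with no overlap between the groups were 7 Hox genes with more signal in VEGFD arrays (38.9%, against 1.09% of all tested genes) and 4 with less (22.2%, against 2.79%). Among the 18 tested genes 10 had a higher mean in VEGFD arrays (55.6%, against 46.4% of all tested genes) and 8 a lower one (44.4%, against 53.6%), while 9 lay above Apex without overlap (50%, against 16.6%) and 7 below (38.9%, against 21.8%). A gene can pass the filter through the group in which it is high, so these counts over tested genes are descriptions. Over all tested genes those 2-fold apart were 127 with more and 326 with less, and 192 and 239 when the arrays were centred on their medians, where the Hox genes numbered 7 and 3. Without VEGFD replicate 1, 6 Hox genes passed in limma, with the remaining VEGFD array assumed to vary like the Apex arrays. These were Hoxb2 (adjusted p = 0.0243), Hoxb3 (0.0411), Hoxb6 (0.0397), Hoxc4 (0.0446) and Hoxc8 (0.0192) with more signal and Hoxd9 (0.0352) with less, among 372 genes in all, and such a fit holds no variation between VEGFD arrays.

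**Figure D1:**
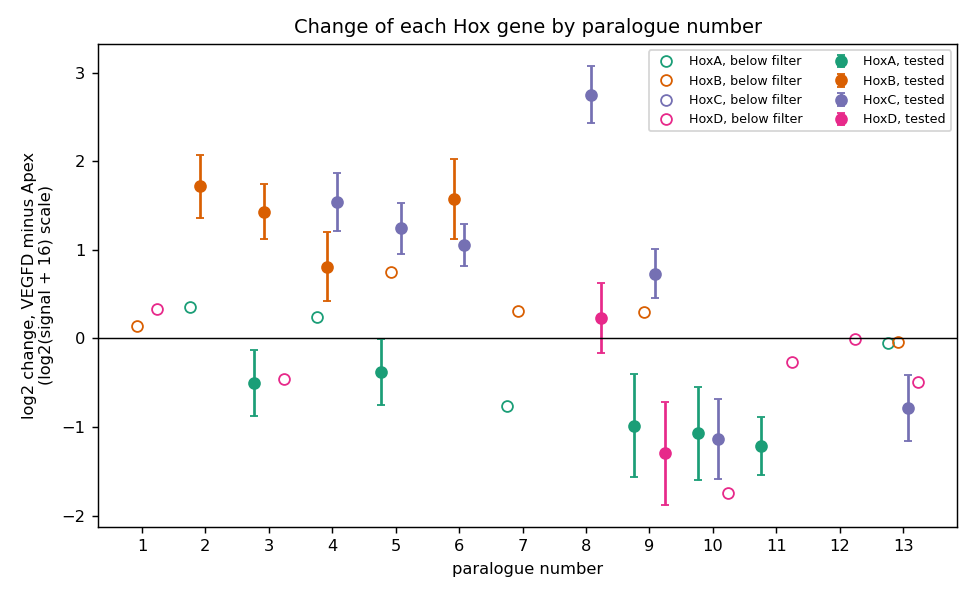
Log2 change (difference of group means of log2(signal + 16), VEGFD minus Apex) of each of the 33 Hox genes against its paralogue number, with points of 1 number spread sideways by cluster. Filled points with bars are the 18 tested genes with the standard error of the limma fit, and open points are the 15 genes below the filter, with no error. Tested genes of HoxB and HoxC up to number 9 lie above 0, and tested genes of HoxA, HoxC and HoxD from 9 to 13 lie below it except Hoxc9.

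Across the 18 tested genes, Spearman's rho between paralogue number and log2 change was -0.67. It is a description, since the genes share the same 4 arrays and are not independent. The median log2 change was 1.24 over the 11 tested genes numbered 1 to 8 and -1.07 over the 7 numbered 9 to 13, against -0.035 over all tested genes. With all 33 members these medians were 0.35 and -0.64.

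The HoxC cluster, known from the trunk skeleton and from position in skin, showed both directions within 1 cluster. All 7 of its measured genes were above the filter. Hoxc4, a gene of the neck and upper trunk, had signals of 102 and 165 in VEGFD replicates 1 and 2, against 39.6 and 29.4 in Apex replicates 1 and 2. Both VEGFD arrays lay above both Apex arrays, and the log2 change was 1.54 ± 0.32 (SE of the limma fit, n = 2 and 2, as for all changes below; adjusted p = 0.743). Hoxc5 had signals of 82.8 and 111 in VEGFD arrays, against 27.6 and 35.6 in Apex arrays, a log2 change of 1.24 ± 0.29 (limma adjusted p = 0.782). Hoxc6, a gene of the thoracic level, had 207 and 188 in VEGFD arrays, against 86.2 and 86.7 in Apex arrays. Its replicates were close to each other and its log2 change was 1.06 ± 0.24 (limma adjusted p = 0.767).

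Hoxc8, which patterns thoracic vertebrae and the motor neurons of the lower forelimb, had the largest change of all 18 tested Hox genes. Its signals were 516 and 498 in VEGFD arrays, against 84.5 and 43.8 in Apex arrays. The groups did not overlap, the fold on the log2(signal + 16) scale was 6.74 and the log2 change was 2.75 ± 0.32 (limma adjusted p = 0.434). With 1 array left out it ran from 2.38 to 3.13. Hoxc9, a gene of the thoracic level next to Hoxc8, had 144 and 153 in VEGFD arrays, against 101 and 68.4 in Apex arrays, and a smaller log2 change of 0.73 ± 0.28 (limma adjusted p = 0.823).

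On the other side of Hoxc9 the direction turned. Hoxc10, a gene of the lumbar level and hindlimb, had signals of 52.7 and 151 in VEGFD arrays, against 222 and 218 in Apex arrays. Both VEGFD arrays lay below both Apex arrays, but they differed from each other, and the log2 change of -1.14 ± 0.46 (limma adjusted p = 0.823) became -0.49 when VEGFD replicate 1 was left out and -1.78 when replicate 2 was. Hoxc13, a gene of the tail, hair and nails, had 66.2 and 101 in VEGFD arrays, against 206 and 113 in Apex arrays. Its log2 change was -0.79 ± 0.37 (limma adjusted p = 0.823), and -0.39 without Apex replicate 1.

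**Figure D2:**
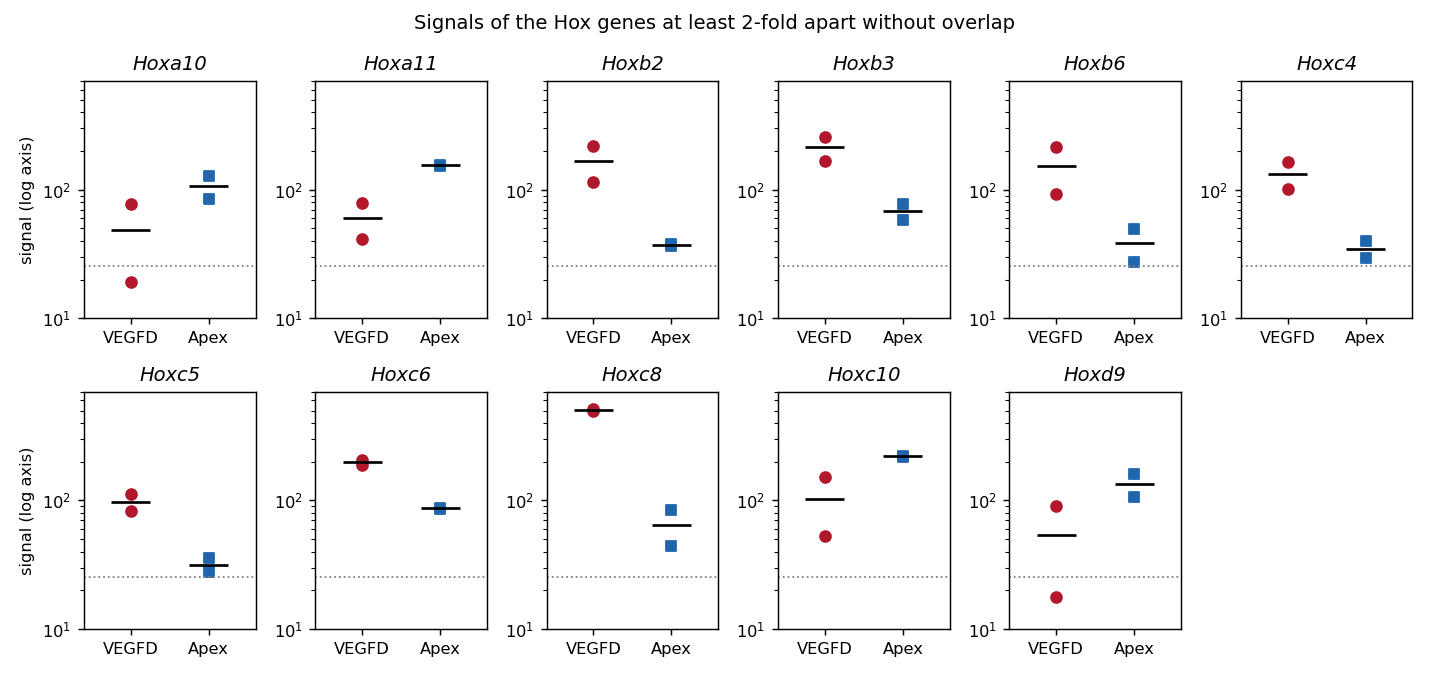
Signals (log axis) of the 11 tested Hox genes at least 2-fold apart without overlap, with the 2 VEGFD arrays as circles left of the 2 Apex arrays as squares, bars at the group means and a dotted line at the filter signal of 25.3. Hoxc8 is at 516 and 498 in VEGFD arrays, against 84.5 and 43.8 in Apex arrays, while Hoxa10, Hoxa11, Hoxc10 and Hoxd9 are lower in VEGFD arrays.

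The place where HoxC turned holds a microRNA gene. In the reference gene table Mir196a-2 lies between Hoxc9 and Hoxc10, Mir196a-1 lies beyond Hoxb9 and Mir196b lies between Hoxa9 and Hoxa10, while Mir10a lies directly before the start of Hoxb4. The microRNA miR-196a is known to cut the Hoxb8 transcript and to act on Hoxc8. The mature sequences are shown from RefSeq (GRCm38.p6) because these genes mark positions inside the clusters, with the seed, bases 2 to 8, in capitals. The microRNAs themselves have no value here, and Hoxb8 had no probe set of its own. A part of microRNAs in the turn of HoxC was not tested.
mmu-miR-196a-5p (Mir196a-2, chr15:102973365-102973386, plus strand): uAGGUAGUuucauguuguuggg
mmu-miR-196b-5p (Mir196b, chr6:52230129-52230150, minus strand): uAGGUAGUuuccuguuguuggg
mmu-miR-10a-5p (Mir10a, chr11:96317186-96317208, plus strand): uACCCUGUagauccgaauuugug
The first 2 share their seed and miR-10a has a different one.

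The HoxB cluster includes genes of the hindbrain and the neck. All 4 of its tested genes had more signal in both VEGFD arrays than in either Apex array, against 16.6% of all tested genes. Over all 9 measured HoxB genes, without the filter, 6 did (66.7%, against 14.4% of all genes). Hoxb2, a gene of hindbrain segments and facial nerve neurons, had signals of 115 and 219 in VEGFD replicates 1 and 2, against 36.8 and 38.1 in Apex replicates 1 and 2. The Apex arrays were nearly equal, and the log2 change was 1.72 ± 0.36, a fold of 3.29 (limma adjusted p = 0.730). Hoxb3, which works with Hoxa3 in the neck, had 168 and 259 in VEGFD arrays, against 58.6 and 77.2 in Apex arrays, a log2 change of 1.43 ± 0.31 (limma adjusted p = 0.767). Hoxb6 had 92.6 and 214 in VEGFD arrays, against 27.2 and 49.6 in Apex arrays, a log2 change of 1.57 ± 0.45 (limma adjusted p = 0.823). In all 3 genes the higher VEGFD value was that of replicate 2. Hoxb4, known for expanding blood stem cells, had 84.7 and 43.0 in VEGFD arrays, against 20.4 and 37.2 in Apex arrays. Its groups were close to overlap and its log2 change was 0.81 ± 0.39 (limma adjusted p = 0.823).

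Of the 5 HoxB genes below the filter, Hoxb5 had signals of 15.3 and 15.8 in VEGFD arrays, against 3.05 and 2.64 in Apex arrays. Hoxb7 had 9.36 and 16.7 in VEGFD arrays, against 7.31 and 7.05 in Apex arrays, so both lay above Apex at low signals. Hoxb9 had 39.9 and 20.7 in VEGFD arrays, against 7.71 and 41.6 in Apex arrays, and the groups overlapped. Hoxb1 overlapped too, and Hoxb13, a gene of the tail end and the prostate, was at 1.95 or less on every array.

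In the HoxA cluster all 5 tested genes had a lower mean in VEGFD arrays, against 53.6% of all tested genes. Over all 9 measured HoxA genes, without the filter, 7 did (77.8%, against 56.5% of all genes). For Hoxa3 and Hoxa5 a second probe set had a higher mean. The 3 tested genes with high numbers had the larger changes. Hoxa11, which forms the middle limb segment together with Hoxd11, had signals of 41.3 and 78.2 in VEGFD replicates 1 and 2, against 156 and 153 in Apex replicates 1 and 2. The VEGFD arrays lay clear of the Apex arrays, and the log2 change was -1.21 ± 0.33 (limma adjusted p = 0.823). Hoxa10, a gene of the lumbar level and the uterus, had 18.99 and 77.9 in VEGFD arrays, against 85.2 and 127 in Apex arrays, a log2 change of -1.07 ± 0.52 (limma adjusted p = 0.823). Hoxa9, a gene of blood progenitors that also acts in endothelial cells, had 62.4 and 249 in VEGFD arrays, against 269 and 269 in Apex arrays, a log2 change of -0.98 ± 0.58 (limma adjusted p = 0.826).

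The lower HoxA values came largely from 1 array. VEGFD replicate 1 was the lowest array for each of the 5 tested HoxA genes, while VEGFD replicate 2 was close to Apex for Hoxa9 and Hoxa10. Without VEGFD replicate 1 the log2 change was -0.11 for Hoxa9, -0.36 for Hoxa10 and -0.85 for Hoxa11, and without VEGFD replicate 2 it was -1.86, -1.78 and -1.57. Hoxa3, a gene of the thymus and neck, had 34.3 and 77.1 in VEGFD arrays, against 79.5 and 82.5 in Apex arrays, a log2 change of -0.50 ± 0.37 (limma adjusted p = 0.828). Hoxa5, a gene of the lung and neck, had 62.4 and 104 in VEGFD arrays, against 82.2 and 146 in Apex arrays, and the groups overlapped. Hoxa2, Hoxa4, Hoxa7 and Hoxa13 were below the filter, with single signals up to 38.3, the highest being Hoxa7 in Apex replicate 1. Log2 changes were 0.35 for Hoxa2 and 0.24 for Hoxa4, so the HoxA genes of low number took both directions.

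In the HoxD cluster, best known from limbs and genital buds, 2 of 8 measured genes were above the filter. Hoxd9 had signals of 89.7 and 17.8 in VEGFD replicates 1 and 2, against 106 and 161 in Apex replicates 1 and 2. The groups did not overlap, but the log2 change of -1.30 ± 0.58 (limma adjusted p = 0.823) became -2.12 when VEGFD replicate 1 was left out and -0.47 when replicate 2 was, so here replicate 2 was the low array. Hoxd8 had 313 and 141 in VEGFD arrays, against 174 and 182 in Apex arrays, with overlap and a log2 change of 0.23 ± 0.40 (limma adjusted p = 0.910). Its direction turned without VEGFD replicate 1, to -0.31. Hoxd10, a gene of the hindlimb that is also known to restrain new vessel growth, was below the filter with signals of 3.06 and 2.83 in VEGFD arrays, against 6.51 and 163 in Apex arrays. Its single high value was on Apex replicate 2, the array with the high endothelial markers, and their part in it was not tested.

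Hoxd13, a gene of the digits, had 11.4 and 12.7 in VEGFD arrays, against 22.7 and 24.3 in Apex arrays, all below the filter signal. Hoxd11 and Hoxd12 were at 6.78 or less on every array, and Hoxd1 and Hoxd3 overlapped between the groups. The members nearest to the filter on either side were Hoxb4, with a mean of 5.86 on the log2(signal + 16) scale, and Hoxb9, with 5.35. Log2 changes of the 15 members below the filter ran from -1.74 to 0.74, and the pseudocount of 16 holds such values near 0.

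**Figure D3:**
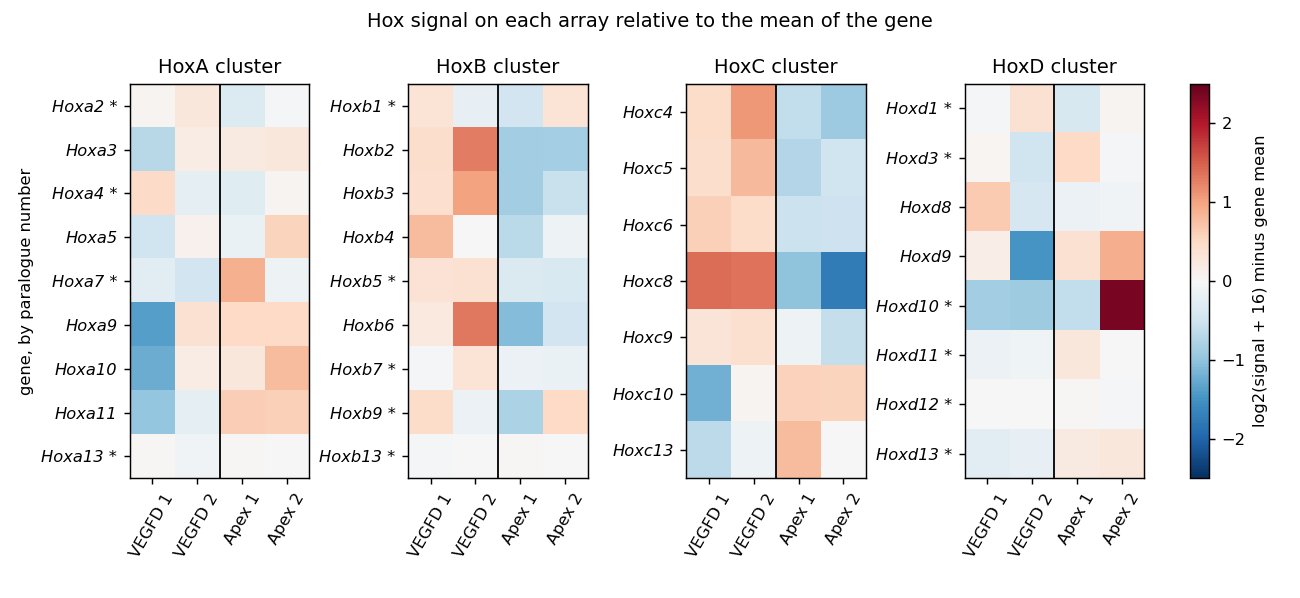
Log2(signal + 16) minus the mean of the gene over the 4 arrays, for the 33 Hox genes in 4 panels by cluster, with VEGFD arrays left of the black line and Apex arrays right of it. Red is above and blue below the mean of the gene, and an asterisk marks the 15 genes below the filter. Hoxb2 to Hoxb6 and Hoxc4 to Hoxc9 are redder in both VEGFD arrays than in either Apex array, Hoxa9 to Hoxa11 and Hoxc10 are bluest in VEGFD replicate 1, and Hoxd10 is high in Apex replicate 2 alone.

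The VEGFD arrays shared the higher low-numbered genes more evenly than the lower high-numbered ones. Relative to the mean of each gene, the 11 tested genes numbered 1 to 8 had a median of 0.44 and 0.80 in VEGFD replicates 1 and 2, against -0.68 and -0.50 in Apex replicates 1 and 2. The 7 tested genes numbered 9 to 13 had a median of -0.97 and 0.074 in VEGFD replicates 1 and 2, against 0.49 and 0.56 in Apex replicates 1 and 2. Both VEGFD arrays lay beyond both Apex arrays in each set. Without VEGFD replicate 1 the median log2 change of the 7 genes was -0.49. In that setting 1 of the 18 tested Hox genes instead of 4 was at least 2-fold lower without overlap. Among all 11677 tested genes it was 817 instead of 326. Without Apex replicate 2, the array with the endothelial markers, 9 of 11 tested genes had a higher and 6 of 7 a lower mean in VEGFD arrays. These were the counts found on all arrays, and 47.2% of all tested genes had a higher mean in that setting. The counts were largely fixed in advance, since leaving out 1 array cannot turn a gene whose groups do not overlap. Of the 18 tested genes 9 lay above and 7 below Apex without overlap. Without Apex replicate 2 the medians were 1.36 and -1.03, against -0.026 over all tested genes.

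**Figure D4:**
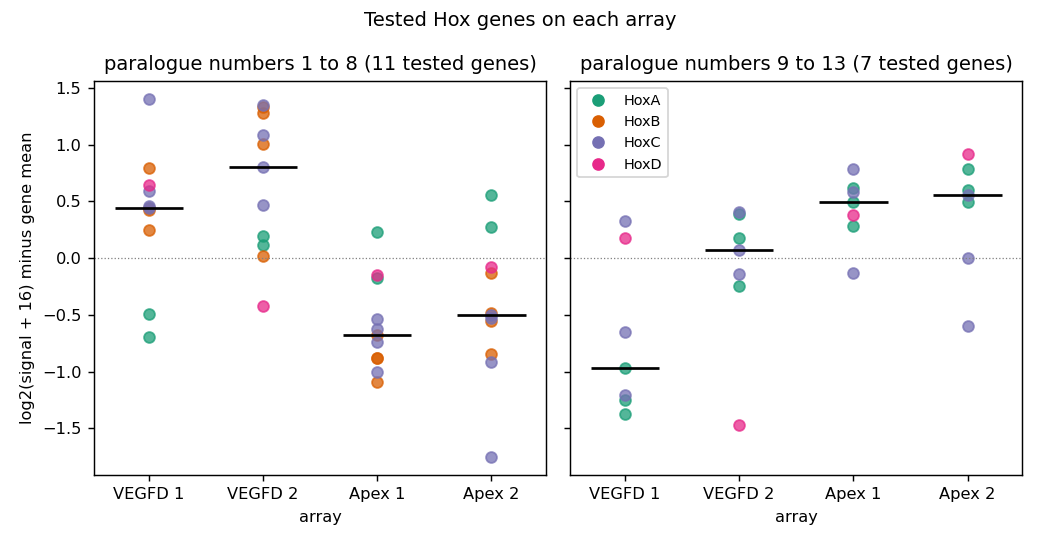
Tested Hox genes on each array as log2(signal + 16) minus the mean of the gene, for paralogue numbers 1 to 8 (11 genes, left) and 9 to 13 (7 genes, right), coloured by cluster, with bars at the medians. The medians are 0.44 and 0.80 in VEGFD arrays, against -0.68 and -0.50 in Apex arrays on the left, and -0.97 and 0.074 in VEGFD arrays, against 0.49 and 0.56 in Apex arrays on the right.

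Some markers of other cells moved between the groups as well. The 9 smooth muscle and pericyte markers summed to signals of 9373 and 18565 in VEGFD arrays, against 7615 and 8857 in Apex arrays, with Myh11 at 19.2 or less on every array. Acta2 and Tagln made up most of that sum. Of the 8 tested members 5 had a higher and 3 a lower mean in VEGFD arrays. Among all tested genes the shares were 46.4% and 53.6%. Tagln (log2 change 2.34 ± 0.61) and Myl9 (1.97 ± 0.67) were at least 2-fold higher without overlap and Des (-1.33 ± 0.49) lower, while Pdgfrb had -0.97 ± 0.31. The 6 fat cell markers, of which 5 were found, summed to 1164 and 1227 in VEGFD arrays, against 2001 and 4517 in Apex arrays. Fabp4 made up most of that sum, with 1098 and 1047 in VEGFD arrays, against 1741 and 4073 in Apex arrays. Its highest value was on Apex replicate 2, the array with the high endothelial markers. Lep and Cidec were at 15.8 or less on every array, and the 3 tested ones, Adipoq, Fabp4 and Pparg, were at least 2-fold lower without overlap. The 6 keratinocyte markers summed to 546 and 200 in VEGFD arrays, against 577 and 820 in Apex arrays. Perp was the largest of them on every array, and Krt1 and Krt14 lay below the filter signal. Of the 4 tested ones Dsp was at least 2-fold lower without overlap. The 8 leukocyte markers, of which 7 were found, summed to 177 and 155 in VEGFD arrays, against 159 and 210 in Apex arrays. The 5 skeletal muscle markers summed to 173 and 815 in VEGFD arrays, against 151 and 215 in Apex arrays, with Acta1 at 724 on VEGFD replicate 2. Each of these 2 lists had 3 tested members and 0 at least 2-fold apart without overlap. The part of all these cells in the Hox differences was not tested.

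More than 1 probe set was present for 11 of the 33 genes, and in 6 of them all probe sets had the same sign. For Hoxb3 both were above the filter, at log2 changes of 1.43 and 0.93, and for Hoxa9 at -0.98 and -0.83. For Hoxc6 the 2 brighter probe sets gave 1.06 and 0.96 and a dimmer one -0.38. For Hoxa3 the second probe set gave 0.75 where the brightest gave -0.50, and for Hoxa5 the second gave 0.33 where the brightest gave -0.38, so neither gene has a settled direction. Averaged over all probe sets, the log2 change was 0.040 for Hoxa3, -0.024 for Hoxa5, 0.54 for Hoxc6, 0.67 for Hoxc5 and -0.36 for Hoxa10. The brightest probe sets of Hoxa5 and Hoxc6 carry the name ending x_at, which Affymetrix gives where some probes may also match other transcripts.

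**Figure D5:**
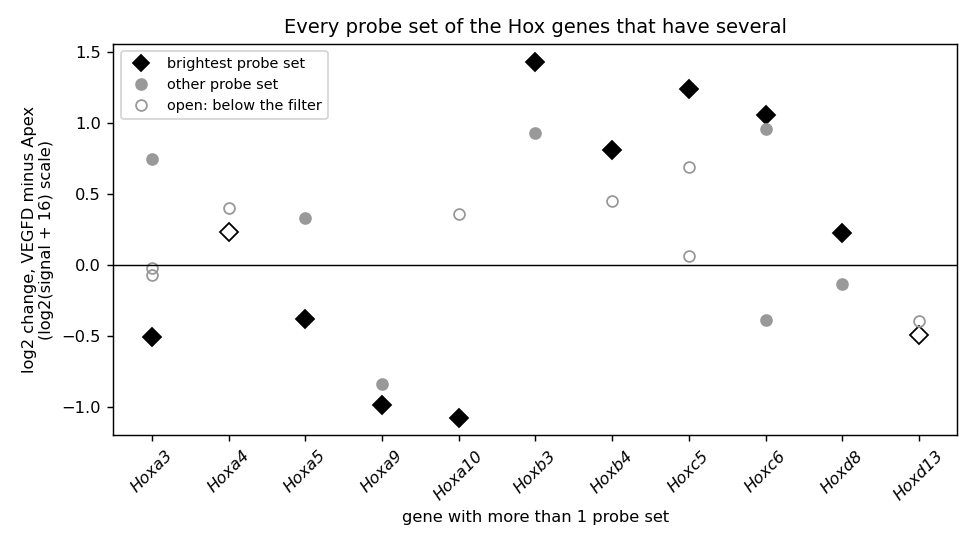
Log2 change (VEGFD minus Apex, in log2 units with 16 added to each signal) of every probe set of the 11 Hox genes that have more than 1. Black diamonds are the brightest probe set of a gene, grey circles the others, and open symbols lie below the filter. The brightest and the next probe set lie on opposite sides of 0 for Hoxa3, Hoxa5, Hoxa10 and Hoxd8.

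Partners and regulators of Hox proteins were measured beside them. Of 9 tested cofactor genes of the Pbx, Meis, Pknox and Tgif families, 6 had a higher and 3 a lower mean in VEGFD arrays, with a median log2 change of 0.16 and 0 at least 2-fold apart. Among all tested genes 46.4% had a higher and 53.6% a lower mean, with a median of -0.035. The 2 largest changes were those of Tgif1, whose product competes for Meis sites, at 0.78 ± 0.31 (limma adjusted p = 0.823), and Pknox2 at -0.66 ± 0.26 (limma adjusted p = 0.823). Of 22 tested chromatin and upstream regulators of the clusters, 12 had a higher and 10 a lower mean, near the shares of all tested genes. Their median was 0.028, with 0 at least 2-fold apart. Wdr5, a subunit of the complexes that methylate histone H3 at active genes, had 0.55 ± 0.31, and Phc2, a Polycomb subunit, 0.47 ± 0.37 (limma adjusted p = 0.825 and 0.832). Neither list had a gene that passed.

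Genes that flank the clusters were measured as well. Of 9 tested, 8 had a higher and 1 a lower mean in VEGFD arrays, against 46.4% and 53.6% of all tested genes. Their median log2 change was 0.21, against -0.035 over all tested genes. At least 2-fold apart without overlap were 0, against 1.09% of all tested genes higher and 2.79% lower. The 2 largest changes were those of Calcoco1, near HoxC, at -0.68 ± 0.49, and Lnpk, near HoxD, at 0.46 ± 0.37 (limma adjusted p = 0.828 and 0.832). Among 8 other position genes of limb and trunk, of which 5 were tested, Pitx1, the gene that sets hindlimb identity, was the 1 at least 2-fold apart. It had signals of 3.14 and 25.8 in VEGFD arrays, against 57.5 and 49.4 in Apex arrays, a log2 change of -1.29 ± 0.44 (limma adjusted p = 0.823). The other 4 tested ones had log2 changes from -0.33 for Shox2 to 0.15 for Emx2.

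Promoters, here the 250 bases before to 50 after a gene's start in RefSeq (GRCm38.p6), were found for 19 of the 33 genes, 21 in all. They are shown for 1 gene with more signal in VEGFD arrays and for 2 with less, with each CG dinucleotide, the site of DNA methylation, in capitals.
Hoxc4 (chr15:103034145-103034444, plus strand): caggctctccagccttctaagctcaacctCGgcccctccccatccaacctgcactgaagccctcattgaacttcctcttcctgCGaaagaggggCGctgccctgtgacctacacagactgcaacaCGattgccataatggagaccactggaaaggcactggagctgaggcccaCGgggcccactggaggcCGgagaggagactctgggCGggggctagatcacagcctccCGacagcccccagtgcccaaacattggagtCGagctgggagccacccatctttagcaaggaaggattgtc
Hoxa11 (chr6:52245761-52246060, minus strand): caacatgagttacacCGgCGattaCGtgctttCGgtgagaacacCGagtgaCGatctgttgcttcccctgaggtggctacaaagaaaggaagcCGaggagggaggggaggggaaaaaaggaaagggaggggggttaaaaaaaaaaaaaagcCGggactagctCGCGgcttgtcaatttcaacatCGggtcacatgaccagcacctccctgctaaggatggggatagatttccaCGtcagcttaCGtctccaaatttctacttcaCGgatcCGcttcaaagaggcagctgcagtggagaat
Hoxd9 (chr2:74697513-74697812, plus strand): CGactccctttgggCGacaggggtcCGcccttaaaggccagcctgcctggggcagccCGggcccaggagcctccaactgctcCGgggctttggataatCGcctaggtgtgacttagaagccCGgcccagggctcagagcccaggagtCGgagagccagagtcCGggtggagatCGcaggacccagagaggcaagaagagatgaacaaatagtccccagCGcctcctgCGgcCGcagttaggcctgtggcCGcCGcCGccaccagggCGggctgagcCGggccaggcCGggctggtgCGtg
They hold 9, 15 and 20 CG dinucleotides in the order shown. The median over the 21 Hox promoters was 15, against 7 over all 32851 promoters. The Pbx-Hox motif TGATNNAT, searched on both strands, was in 3 of the 21 (14.3%, against 8.85% of all promoters), the Meis motif TGACAG in 2 (9.52%, against 19.2%) and the Cdx motif TTTATNG in 0 (against 10.9%), with 1 Hox promoter, that of Hoxa2, holding both of the first. None of the 3 promoters shown holds any of these motifs.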

How the data were processed

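RNA from 4 samples was measured on Affymetrix mouse arrays, with biotin-labelled RNA per the labels' protocols. The deposited values are linear intensity, 1 signal per probe set; no source used here names the algorithm behind them. Each array has a mean of 150.0 after trimming 2% of its 45101 probe sets at each end. No detection calls were used, and the number of arrays, 2 in each group, limits the precision.

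Probe sets were named from the platform annotation, in which all 33 Hox genes matched the RefSeq table for GRCm38.p6 by gene ID and symbol, and controls were left out. Values were used as log2(signal + 16), which understates changes of dim genes. Each gene took its probe set with the highest mean signal, and genes with a mean log2 value under the median of all probe sets were not tested. VEGFD was compared with Apex over 11677 genes with limma 3.58.1 in R 4.3.3 (lmFit and eBayes, trend on intensity). Tests were two-sided, p values were adjusted by Benjamini-Hochberg and genes passed under 0.05. The procedure was tested on simulated data. An exact permutation test of 2 against 2 cannot go below p = 0.333, so p values rest on limma's model. Genes at least 2-fold apart with both VEGFD arrays on 1 side of both Apex arrays were counted without a test. Members, lists and tests were chosen with earlier results of these data known. The rule for naming gave array values for Hox genes 2-fold apart without overlap, changes for the other tested ones, and from the lists of cofactors, regulators, flanking genes and position genes those 2-fold apart or the 2 with the largest change. Single cell type markers were named as examples after their values were seen. Array values of further Hox genes were added after they were seen. Alternatives covered the pseudocount, filter, scaling, choice of probe set, variance model, replicate block and each array left out.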

Additional observations from a re-analysis of the deposited data

How the results depend on the processing

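The number of arrays and dim signals limit these results. With each array left out in turn, the Hox genes that passed numbered from 0 to 6 (all 6 without VEGFD replicate 1), all genes that passed from 0 to 372, Hox genes 2-fold lower from 1 to 5, and the median change of all tested Hox genes ran from 0.18 to 0.73 (0.48 on all arrays) and that of numbers 9 to 13 from -1.57 to -0.49. With a pseudocount of 64, 4 Hox genes were 2-fold higher and 0 lower, and the median was 0.15 for all and 0.80 for numbers 1 to 8. With a pseudocount of 1 these medians were 0.54 and 1.58. Without a filter they were 0.15 and 0.35, with 15 of numbers 1 to 8 higher and 12 of numbers 9 to 13 lower. The stricter filter (75th percentile) left 4 Hox genes, 1 of them 2-fold higher and 1 lower, 2 of 2 higher in numbers 1 to 8 and 2 of 2 lower in numbers 9 to 13, with medians of -0.38 for all, the opposite sign, and 1.49 for numbers 1 to 8. Median centring gave 0.60 for all and moved the median of all genes by 0.12. Averaged probe sets gave 0.30, and every probe set on its own 0.33 for all and 0.93 for numbers 1 to 8. Hoxa3 turned to 0.040 with averaged probe sets and Hoxd8 to -0.31 without VEGFD replicate 1 (up to 0.76 with another array left out). Over all genes, those 2-fold apart numbered 70 higher and 161 lower with a pseudocount of 64, 74 and 152 with the stricter filter, 92 and 212 with averaged probe sets, 345 and 544 for single probe sets, and 120 to 531 and 322 to 817 with 1 array left out, beside 127 and 326.

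The labels do not say that equal replicate numbers pair arrays. The differences between replicates 1 and 2 of the 2 groups correlated at 0.20 across genes. With the replicate number as a block, 6 genes passed in limma and 0 of them were Hox genes, the smallest Hox adjusted p being 0.0772, for Hoxc8. Of the 252 values of single Hox genes under alternatives, 250 had the same direction as on all arrays. Much of this was fixed in advance. Changing the filter, fitting every probe set on its own, the variance model and the replicate block leave the log2 change of a gene as it is. Averaging probe sets does the same for genes with 1 probe set. Leaving out 1 array cannot turn the direction of a gene whose groups do not overlap.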

Other observations

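Antisense transcripts of the clusters, chosen after their values were seen, were found by their gene symbols. Hoxa11os, transcribed opposite to Hoxa11, had signals of 9.77 and 14.1 in VEGFD replicates 1 and 2, against 61.7 and 24.4 in Apex replicates 1 and 2. Both VEGFD arrays were below both Apex arrays, as for Hoxa11, but its mean lay below the filter and it was not tested. Hoxb5os had 26.3 and 20.2 in VEGFD arrays, against 16.5 and 43.9 in Apex arrays, and Hoxd3os1 had 84.7 and 13.9 in VEGFD arrays, against 35.6 and 40.8 in Apex arrays, both with overlap.

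Tbx4, a hindlimb gene like Pitx1, lay below the filter on every array, with 6.09 and 8.0 in VEGFD arrays, against 22.6 and 18.3 in Apex arrays. Tbx5, from the same list and also not tested, had 20.9 and 6.75 in VEGFD arrays, against 34.9 and 9.31 in Apex arrays. Its groups overlapped, with a log2 change of -0.31. Hoxd9 and the HoxA genes were lowest on different VEGFD arrays: Hoxd9 on replicate 2, and Hoxa9, Hoxa10 and Hoxa11 on replicate 1.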
